A study of Mus musculus with 2 samples.

Results

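The genes described here carry the cell division cycle: cyclins, cyclin-dependent kinases and their inhibitors, Cdc-named genes, the replicative helicase (Mcm), the origin recognition complex (Orc), E2F factors, centromere proteins (Cenp), mitotic kinases (Aurk, Plk) and spindle checkpoint genes (Bub), with Mki67, Pcna and Zmat3. They were picked by a rule on gene symbols, set with earlier results of these data known, and the rule left out Ccnd1 by name. Probes were given a gene by reading a number in the probe ID as a mouse NCBI gene ID, and 7409 genes had at least 1 such probe. Of these, 51 genes with 74 probes belonged to the set, and 35 of the 51 were detected on at least 1 array. Many core cell cycle genes had no named probe and so are not among the 51, such as Cdk1, Cdk2, Cdk4, Ccna2, Ccne1, E2f1 and Aurka. The groups below thus cover only part of each phase. Among all genes with a named probe, 3217 were detected. Each gene was represented by its brightest detected probe.

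The cells were CD1 mouse embryonic fibroblasts (MEFs), primary cells of an outbred mouse stock that serve as feeder layers for human embryonic stem (hES) cells. Both groups had been grown in medium with foetal calf serum and inactivated with mitomycin C, then seeded on gelatine at 55000 cells per square centimetre. The control group was kept for 24 h in basic hES cell medium with Serum Replacement and without FGF2. The FGF2 group was kept for 24 h in the same medium plus FGF2 at 40 ng/ml. FGF2 is a mitogen of fibroblasts whose receptors are tyrosine kinases. Each group was measured on 1 Illumina bead array, so no test was possible, and every comparison describes 1 pair of arrays. Both groups carried the mitomycin C treatment, so the arrays compare arrested cells with arrested cells and do not bear on the arrest itself.

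Mitomycin C crosslinks the strands of DNA. Crosslinked cells stabilise p53, which switches on Cdkn1a (p21), an inhibitor of cyclin-dependent kinases. With these kinases held back, the retinoblastoma family stays active and, through E2F sites and the CHR element, represses the genes of S phase and mitosis. FGF2 acts on the cycle of fibroblasts mainly through ERK and the D-type cyclins at the start of G1.

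The promoters of the set show these 3 kinds of element, and 1 or 2 windows are printed for each kind because the results below are grouped the same way. RefSeq (GRCm38.p6) gave a window for 31 of the 35 detected genes, from 250 bases before to 50 bases after an annotated start, and 4 of these genes had several starts. The windows below end 30 bases after the start. Capitals mark, in the first pair, the p53 consensus, 2 adjacent decamers of 20 bases with at most 1 mismatch outside the 4 core bases. In Mcm7 capitals mark the E2F element, and in Cdc20 the CHR.
Cdkn1a, chr17:29090729-29091008, plus strand: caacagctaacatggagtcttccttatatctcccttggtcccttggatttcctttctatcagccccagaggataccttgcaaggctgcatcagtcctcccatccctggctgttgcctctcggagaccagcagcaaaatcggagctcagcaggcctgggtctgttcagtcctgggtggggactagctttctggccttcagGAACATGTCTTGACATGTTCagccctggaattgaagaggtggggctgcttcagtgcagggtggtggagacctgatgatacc
Ccng1, chr11:40755257-40755536, minus strand: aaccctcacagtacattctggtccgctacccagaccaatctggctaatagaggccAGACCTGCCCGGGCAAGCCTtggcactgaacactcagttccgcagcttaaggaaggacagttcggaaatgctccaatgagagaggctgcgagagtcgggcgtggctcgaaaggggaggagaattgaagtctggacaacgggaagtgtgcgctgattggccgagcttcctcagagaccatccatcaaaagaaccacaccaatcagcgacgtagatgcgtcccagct
Mcm7, chr5:138171854-138172133, minus strand: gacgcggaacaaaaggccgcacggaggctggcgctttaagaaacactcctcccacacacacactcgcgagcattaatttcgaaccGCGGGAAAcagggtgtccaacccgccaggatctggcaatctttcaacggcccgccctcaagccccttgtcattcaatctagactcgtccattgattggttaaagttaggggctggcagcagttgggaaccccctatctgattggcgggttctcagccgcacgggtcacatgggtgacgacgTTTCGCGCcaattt
Cdc20, chr4:118437314-118437593, minus strand: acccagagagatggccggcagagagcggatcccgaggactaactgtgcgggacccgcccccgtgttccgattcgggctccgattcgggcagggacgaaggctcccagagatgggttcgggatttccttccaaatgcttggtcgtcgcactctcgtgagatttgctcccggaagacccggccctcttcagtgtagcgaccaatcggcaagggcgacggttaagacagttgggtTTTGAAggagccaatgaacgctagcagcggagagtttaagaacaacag

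The Cdkn1a window shown is that of the upstream of 2 annotated starts, and the window of the downstream start held no p53 match. For Mcm7, too, the upstream of 2 annotated starts is shown, and the window of its downstream start held no E2F match. A gene was counted when any of its windows held a match. Both arrest genes with a promoter entry, Cdkn1a and Ccng1, held a p53 match, against 22 of 27025 genes with a promoter in the table (0.0814%). The rule for a p53 match was settled after the Cdkn1a window had been read, and it replaced a first one. That first rule asked for 2 decamers without mismatch and allowed 0 to 13 bases between them. It matched Cdkn1a but not Ccng1, 1 of the 2 arrest genes, and 20 of 27025 genes with a promoter (0.074%). The capitals in Cdkn1a hold 1 mismatch, so the first rule did not match them as a whole. In the window shown, its match overlapped them: it joined a decamer further upstream to the first decamer of the capitals. The marked stretch in Cdkn1a and the match in Ccng1 thus both depend on the rule, which was chosen with that outcome known. The E2F element was searched on both strands as TTTGGCGC, TTTCCCGC, TTTCGCGC or TTTGCCGC. It was found in 5 of 9 genes of G1/S and replication (Cdc25a, Cdc6, Cdca7, Mcm7 and Mcmbp) and in 2.61% of all genes with a promoter. The CHR, searched as TTTGAA, was found in 5 of 10 genes of G2 and mitosis (Cdc20, Cdca8, Cenpa, Mki67 and Plk1), in none of the 9 genes of G1/S and replication, and in 20.2% of all genes with a promoter. A CCAAT box often stands near a CHR, and 1 overlaps by its first base the downstream of the E2F matches in the Mcm7 window shown. The CCAAT box was found in 8 of the same 10 mitotic genes and in 41.1% of all. A GC box, GGGCGG on either strand, was also searched. It was found in 7 of 9 genes of G1/S and replication, 9 of 10 of G2 and mitosis, 1 of 2 arrest genes and 38.2% of all genes with a promoter. These matches describe the letters of the windows and say nothing about binding in these cells.

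Almost all detected genes of the set, which leaves out Ccnd1 (3.16-fold higher with FGF2), had similar signals on both arrays, as did most named genes. Only Cdk20 was at least 1.5-fold higher with FGF2 and only Cdk19 at least 1.5-fold lower, among 35. Over all 3217 detected named genes, 4.57% passed 1.5-fold upwards and 5.04% downwards, 9.61% in all. The share of members within 1.5-fold was 94.3%, close to the 90.4% of named genes. Counting Ccnd1 as a member would lower the members' share. An SD of 0.18, from different probes of one gene, served as the error of a log2 ratio. Within 1 such SD of 0 lay 25 members (71.4%), against 51.1% of named genes. This limit was chosen after the data were seen. Within a wider limit, a log2 ratio of 0.32 either way, lay 30 members (85.7%) and 72.6% of named genes. The median log2 ratio of FGF2 over control was 0.03 in the set and 0.03 over all named genes. The median size of the log2 ratio, regardless of sign, was 0.09 in the set and 0.18 over all named genes. Bulk RNA cannot tell a change in the share of cycling cells from a change in RNA per cell.

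**Figure D1:**
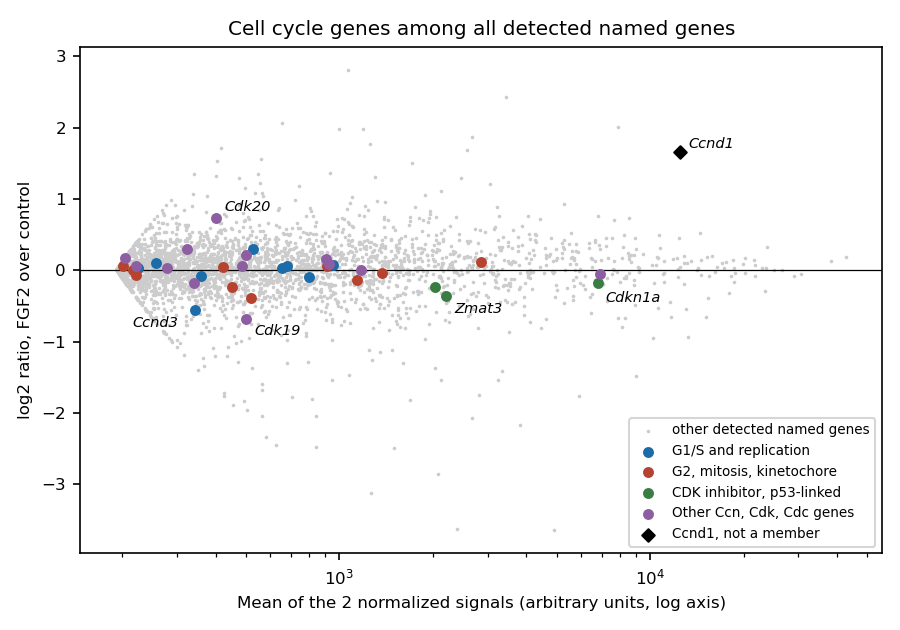
Log2 ratio of FGF2 over control against the mean of the 2 normalized signals (arbitrary units, log axis) for 3217 detected named genes, with 35 cell cycle genes coloured by role and Ccnd1 as a diamond. Cdk20 and Cdk19 lie at 0.74 and -0.68, and Ccnd1, which is not a member, at 1.66.

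Background is part of every signal and pulls the ratio of a dim probe towards 0, so the set was also split at a mean normalized signal of 500. Of 19 members at or above it, 13 lay within 1 SD of 0 (68.4%), against 44.3% of 1468 named genes. Of 16 dimmer members, 12 did, against 56.9% of 1749 named genes. The limit of 500 was chosen after the data were seen. At a limit of 300 the shares were 63.0% of 27 brighter members against 44.5% of named genes, and 8 of 8 dimmer members against 65.4%. At a limit of 1000 they were 6 of 8 brighter members against 43.4% of named genes, and 70.4% of 27 dimmer members against 53.8%. The share of members was above that of named genes on both sides of all 3 limits, as a description of these arrays. The 3 limits split the same genes, so they are not separate results. Ccnd1, left out by name, would lower the share of the brighter members at each limit.

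Of the 4 members grouped as CDK inhibitors and p53-linked arrest genes, 3 were detected. All 3 were lower with FGF2, each by less than 1.5-fold. Cdkn1a, the p21 inhibitor that holds CDK2 in check, had a normalized signal of 7191 without and 6353.5 with FGF2. Its log2 ratio was -0.18, with a bead error of 0.049. The second Cdkn1a probe read 6626.7 and 5586.9, a log2 ratio of -0.25. Both probes were thus lower with FGF2, the first by slightly less and the second by more than the SD of 0.18.

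Ccng1 (cyclin G1), a p53 target that acts on the p53 regulator Mdm2, read 2192 without and 1862.9 with FGF2, a log2 ratio of -0.23 (bead error 0.075). Zmat3, a p53-induced RNA-binding zinc finger protein, read 2469.1 and 1926.2, a log2 ratio of -0.36 (bead error 0.068). Zmat3 stood lowest of the 3, and 366 of the 3217 named genes had a lower ratio; 571 lay below Ccng1 and 725 below Cdkn1a. The sizes depended on the scaling. In the authors' background-subtracted values the log2 ratios were -0.31 for Zmat3, -0.18 for Ccng1 and -0.06 for Cdkn1a. Cdkn1b (p27), the inhibitor of quiescent cells, was not detected on either array, with best scores of 0.43 and 0.23 from 2 probes.

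**Figure D2:**
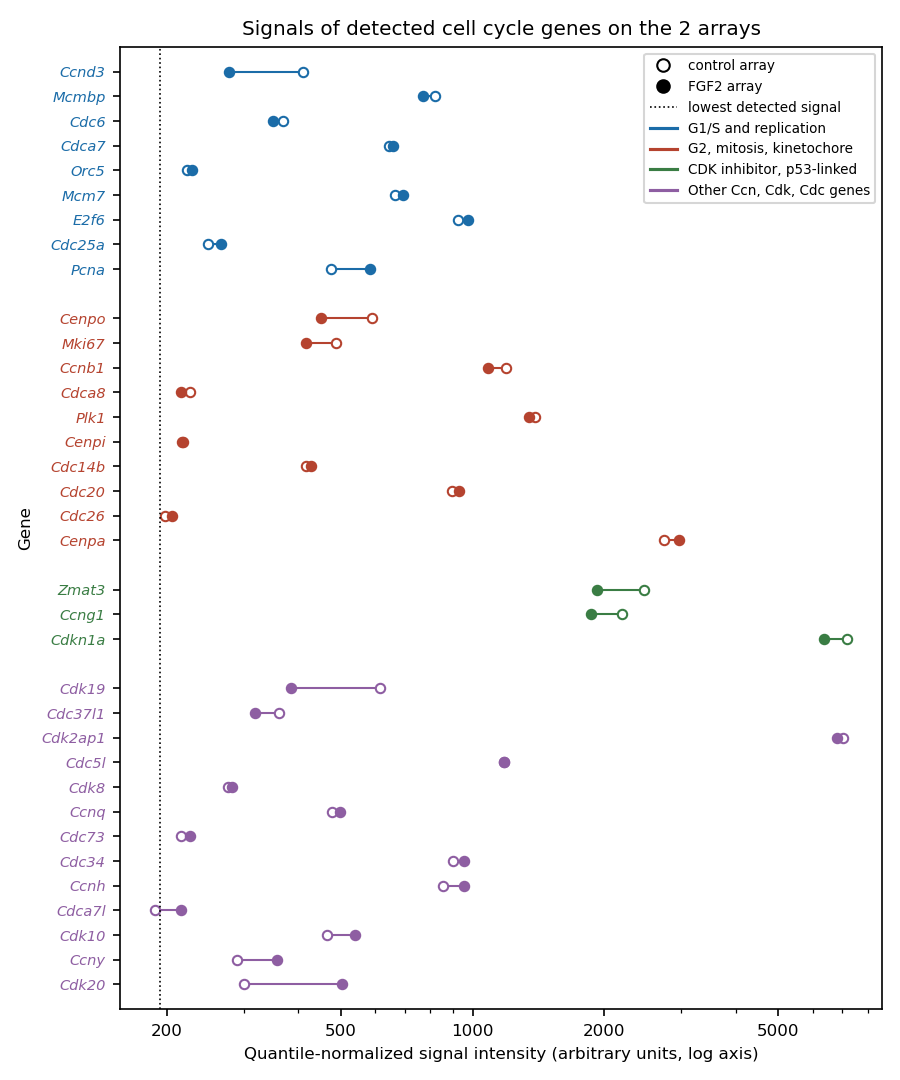
Quantile-normalized signal (arbitrary units, log axis) of each of 35 detected genes on the control array (open) and the FGF2 array (filled), grouped by role, with the lowest detected signal dotted. Signals of different genes come from different probes and are not to be compared with each other, and the 3 green pairs of the arrest group all run to the left with FGF2.

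Other genes of DNA damage arrest were mixed in direction. Of 33 listed p53 targets and damage response genes outside the set, 8 had a named probe and 5 were detected. All 5 stayed within 1.5-fold, with 3 above 0 and 2 below and a median log2 ratio of 0.04. Pmaip1 (Noxa), a pro-apoptotic p53 target, read 265.4 and 330.4, a log2 ratio of 0.32. Aen, a p53-induced nuclease, read 267.1 and 291 (0.12), and Xpc, a DNA damage sensor of excision repair, 217.6 and 224.2 (0.04). Apaf1, the core of the apoptosome, read 222.8 and 196.2 (-0.18, as low as Cdkn1a). Fzr1, an activator of the anaphase-promoting complex, read 355.55 and 328.5 (-0.11). All 5 were dim, with Apaf1 close to the lowest detected signal, so background pulls their ratios towards 0. In the authors' background-subtracted values Pmaip1 was 1.51-fold higher and Apaf1 1.48-fold lower.

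Among genes of G1/S and replication with a named probe, 9 of 15 were detected, and 7 of the 9 lay within 1 SD of 0. Their median log2 ratio was 0.04 and their range ran from -0.56 to 0.30. The lowest was Ccnd3 (cyclin D3), a D-type cyclin that activates CDK4 and CDK6, with 408.8 without and 278.2 with FGF2. Its log2 ratio of -0.56 (bead error 0.063) was just short of 1.5-fold. The call depended on the processing: Ccnd3 was 1.93-fold lower in the authors' background-subtracted values, and it passed 1.5-fold in 3 of 10 settings. Ccnd3 was represented by 1 detected probe.

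Pcna, the sliding clamp of the replication fork, was the highest of this group, with 474.7 and 583.8, a log2 ratio of 0.30 (bead error 0.075). In the authors' background-subtracted values it was 1.34-fold higher. The other 7 lay close to 0. The helicase subunit Mcm7 read 666 and 693.5 (log2 ratio 0.06), and Cdc6, which loads the helicase at origins, read 369.7 and 350.3 (-0.08, bead error 0.074). Mcmbp, which codes for a protein that binds the helicase, read 821.2 and 771.6 (-0.09, bead error 0.057). None of these 3 lay beyond 1 SD. Cdc25a, the phosphatase that activates CDK2, read 248.3 and 265.6 (0.10, bead error 0.060), and the repressor E2f6 927.6 and 976.6 (0.07, bead error 0.061). Dimmer probes had the opposite sign for E2f6 (-0.04, and -0.09 on a probe detected on the control array only) and for Mcmbp (0.05), so the signs of both were not settled. Orc5, an origin recognition subunit, and Cdca7, an E2F target and partner of a chromatin remodeller, stood at 0.04 and 0.03.

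The 5 genes with an E2F element in their window, Cdc25a, Cdc6, Cdca7, Mcm7 and Mcmbp, thus had log2 ratios from -0.09 to 0.10. Pcna and Ccnd3, the farthest from 0 in this group, were not among them. Neither were E2f6 (0.07) and Orc5 (0.04), which lay as close to 0 as the 5. A link between element and ratio was not tested.

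Outside the set, 45 further S phase genes and E2F targets were listed, 15 had a named probe and 10 were detected. All 10 stayed within 1.5-fold, 6 above 0 and 4 below, with a median log2 ratio of 0.03. Fen1, the flap endonuclease of lagging-strand synthesis, was the highest with 540 and 712 (log2 ratio 0.40). Nasp, a histone chaperone of S phase, read 621.6 and 768.2 (0.31). Gins3, a subunit of the helicase complex, was the lowest with 261.4 and 215.5, a log2 ratio of -0.28, or 1.60-fold lower in the authors' background-subtracted values. Rrm2, the ribonucleotide reductase subunit made in S phase, stood at 0.02.

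Of the genes of G2, mitosis and the kinetochore with a named probe, 10 of 14 were detected, 8 of them within 1 SD of 0. The median log2 ratio was -0.02, with 5 genes above 0 and 5 below. The lowest was Cenpo, a constitutive centromere protein that links kinetochore and centromere, with 588.8 without and 449.7 with FGF2 (log2 ratio -0.39, bead error 0.063). Mki67, the Ki-67 protein that coats mitotic chromosomes and is the usual marker of cycling cells, read 487.8 and 415.2 (-0.23, bead error 0.070). Cenpo and Mki67, like Plk1 and Cdca8 below, each had 2 probes on the array, of which 1 was detected. Cenpa, the histone H3 variant that marks the centromere, stood at the other end with 2732.6 and 2961.5 (0.12, bead error 0.079).

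Ccnb1 (cyclin B1), the activator of CDK1, read 1194.9 and 1087.2, a log2 ratio of -0.14 (bead error 0.078). Plk1, the mitotic kinase, read 1388 and 1347.3 (-0.04, bead error 0.074), and Cdc20, which turns on the anaphase-promoting complex, read 898.2 and 933.4 (0.06). The other detected Cdc20 probes gave -0.17 and -0.06, so its sign was not settled. Cdc14b, a phosphatase, stood at 0.04, and Cdca8 (borealin), a member of the chromosomal passenger complex, at -0.07 (225.9 and 215.8, bead error 0.071). Cenpi, a kinetochore protein, and Cdc26, a subunit of the anaphase-promoting complex, stood at 0.00 and 0.06. Their signals, 217.2 and 217.6 for Cenpi and 197.9 and 205.7 for Cdc26 (bead error 0.097), were close to the lowest detected signals of the arrays, 191.7 and 193.1.

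The 5 mitotic genes with a CHR in their window, Cdc20, Cdca8, Cenpa, Mki67 and Plk1, had log2 ratios from -0.23 to 0.12. Cenpo, the lowest of the group, held neither a CHR nor a CCAAT box in its window. Ccnb1, Cdc14b, Cdc26 and Cenpi also lacked a CHR and stood between -0.14 and 0.06. Here, too, a link between element and ratio was not tested.

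Of 44 further mitotic genes listed, 14 had a named probe and 8 were detected, with a median log2 ratio of -0.11. Spc24, a kinetochore protein of the Ndc80 complex, read 710.5 and 477.7 (-0.57, bead error 0.069). Nusap1, a spindle protein that bundles microtubules, read 1040.2 and 699.6 (-0.57, bead error 0.072). Both were just short of 1.5-fold lower, and were 1.65-fold and 1.57-fold lower in the authors' background-subtracted values. Other bright mitotic genes stood near 0: Birc5 (survivin) read 837.5 and 839.5, and Anln (anillin), needed for cytokinesis, read 1533.8 and 1585. Knstrn, a spindle protein, stood at -0.16 and Foxm1, the transcription factor of mitotic genes, at -0.11, both near the lowest detected signal. Of all 18 detected mitotic genes, in and outside the set, Spc24, Nusap1, Cenpo and Mki67 were the lowest, and the other 14 lay between -0.16 and 0.12.

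**Figure D3:**
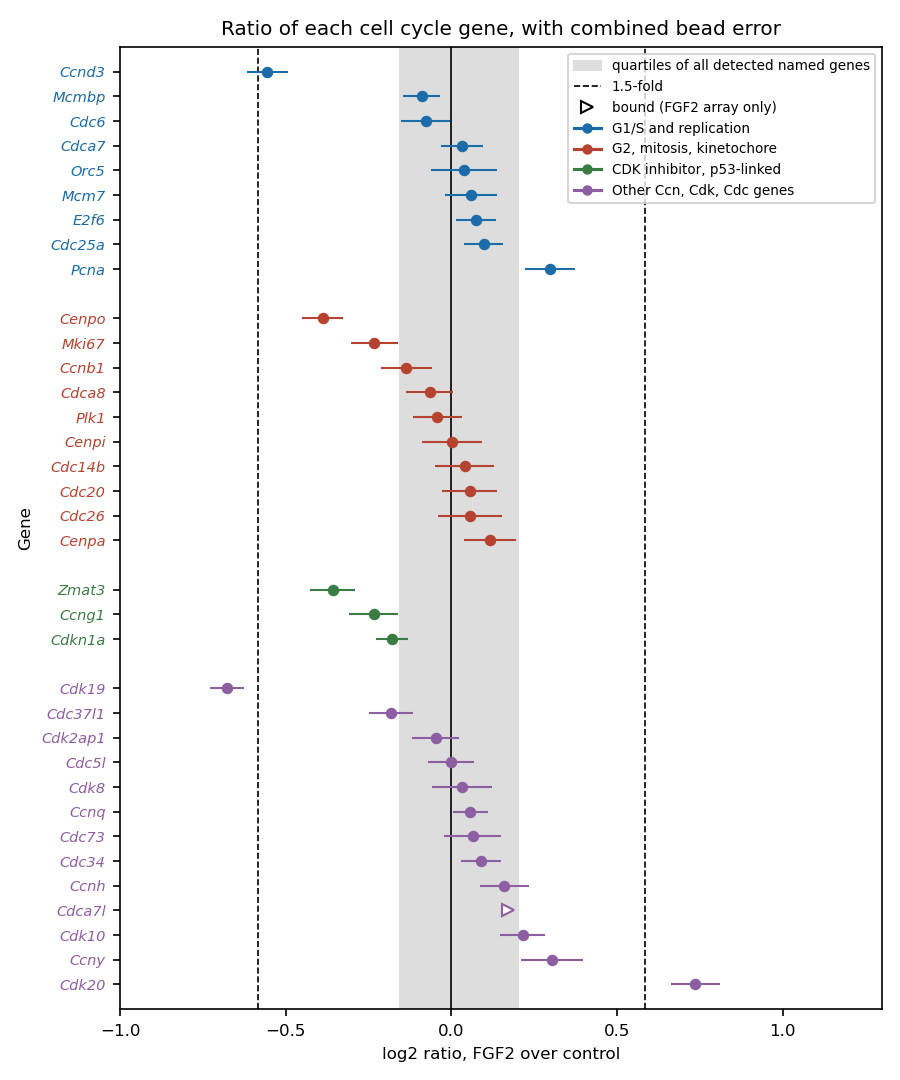
Log2 ratio of FGF2 over control for each of 35 detected genes, grouped by role. Bars are the bead error of each gene's 1 probe, combined over the 2 arrays. Cdca7l, detected on the FGF2 array only, is a bound drawn as an open triangle without a bar. The grey band spans the quartiles of all detected named genes (-0.15 to 0.20). Dashed lines mark 1.5-fold, and Cdk20 and Cdk19 lie outside them.

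The remaining members, 13 detected of 18, are cyclins, kinases and Cdc-named genes with roles mostly outside the phases, and the 2 largest differences of the set were here. Cdk20, a kinase related to CDK7 that also acts in cilia, read 301.2 without and 501.9 with FGF2. Its log2 ratio was 0.74 (1.67-fold, bead error 0.073), and 82 named genes had a higher one. Cdk19, a kinase of the Mediator complex of transcription, read 615.4 and 384.9, a log2 ratio of -0.68 (1.60-fold, bead error 0.051), with 119 named genes lower. Each of the 2 was measured by a single probe. In the authors' background-subtracted values Cdk20 was 2.22-fold higher and Cdk19 1.89-fold lower.

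Cdk8, the paralogue that takes the place of Cdk19 in Mediator, read 276 and 282.1 (log2 ratio 0.03) near the lower end of detection. Ccny, a membrane-bound cyclin, read 289.6 and 357.5 (0.30, bead error 0.093), and Cdk10 465.1 and 540 (0.22, bead error 0.068). Ccnq (cyclin M), the partner of Cdk10, stood at 0.06, with 477.9 and 497.2. Ccnh, the cyclin of the CDK-activating kinase, read 854.4 and 954.4 (0.16, bead error 0.075).

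Cdca7l, a relative of Cdca7, was detected with FGF2 only, with a score of 0.998 against 0.984. It read 187.9 and 215.8 (bead error 0.067). Against the floor of the control array this was a log2 ratio of 0.17 (1.13-fold), a bound that depends on the scaling. With the signals as deposited the bound was 0.08. Cdc37l1, related to the kinase chaperone Cdc37, stood at -0.18 with 361.3 and 318.4 (bead error 0.066), and its second probe at -0.04. The ubiquitin-conjugating enzyme gene Cdc34 stood at 0.09, and the transcription elongation factor gene Cdc73 at 0.06. The splicing factor gene Cdc5l read 1178 and 1177.2, a log2 ratio of 0.00. Cdk2ap1, a CDK2-associated protein, read 7022.8 and 6792.3, a log2 ratio of -0.05, against 0.07 in the authors' background-subtracted values.

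Set side by side, the 2 phase groups overlapped. The median of G1/S and replication exceeded that of G2 and mitosis by 0.06 on the log2 scale, with ranges of -0.56 to 0.30 and -0.39 to 0.12. The median of the 3 arrest genes, -0.23, was below that of G1/S and replication by 0.27 and below that of G2 and mitosis by 0.21. With quantile normalization all 3 arrest genes lay under the lower quartile of named genes, -0.15, whereas 1 of 9 genes of G1/S and 2 of 10 of G2 and mitosis did. In the authors' background-subtracted values that quartile was -0.23. Of the 3 arrest genes only Zmat3 (-0.31) lay under it there, and Ccng1 (-0.18) and Cdkn1a (-0.06) did not. With 3 genes on 1 pair of arrays this is a description. The 5 detected p53 targets and damage response genes outside the set did not share this low median, with 0.04, 3 above 0 and 2 below. They were much dimmer than the 3 arrest genes, and background pulls dim ratios towards 0, which limits this contrast. Arrest below mitosis below G1/S was the order of the group medians under all 9 alternative settings of scaling, background, detection and probe choice. With the signals as deposited the G1/S median was -0.01 where that of named genes was -0.04, so it stayed above the named genes, as with quantile normalization (0.04 against 0.03). The median of G2 and mitosis was between -0.09 and 0.00.

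**Figure D4:**
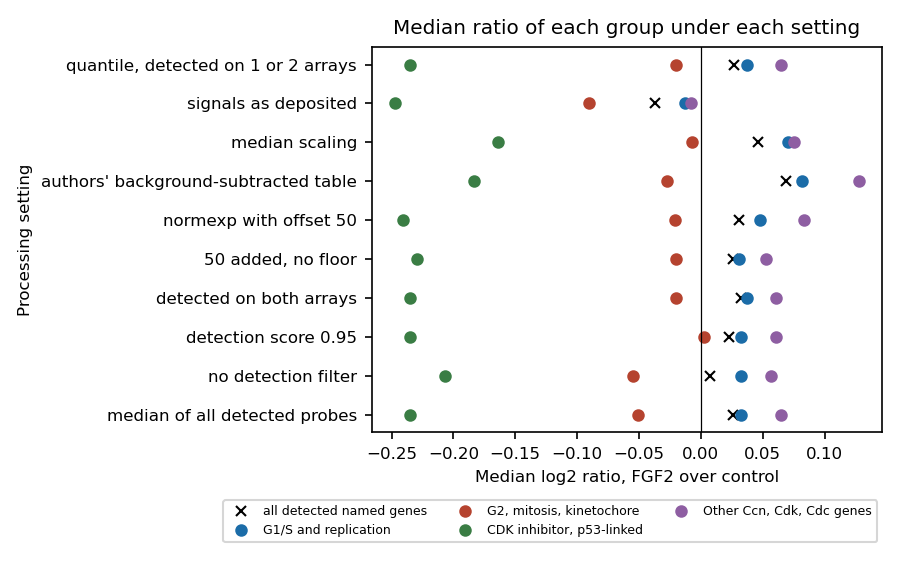
Median log2 ratio of FGF2 over control for each role group and for all detected named genes (crosses) under 10 processing settings. The arrest group has the lowest median in each, from -0.25 to -0.16.

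The only errors these files give come from the beads and from repeated probes. The combined bead error of a member's log2 ratio ran from 0.049 to 0.099 with a median of 0.071. Of 35 ratios, 13 were smaller than their bead error, 8 were between 1 and 2 times it and 14 were at least 2 times it. These counts were not made over all named genes, whose median bead error was 0.075, so they do not set the members apart. The SD of 0.18 came from 299 pairs of probes that share a gene, in 243 genes. For 8 such pairs in 6 members it was 0.092, and the largest difference between 2 probes of a member was 0.22 (Cdc20). By the wider of these measures, 31 of the 35 ratios were within 2 SD of 0, as were 2494 of the 3217 named genes. Neither measure holds the difference between cultures, which 1 array per group cannot show.

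Direction depended on scaling for the many ratios near 0. With quantile normalization 20 members were above 0 and 15 below, with the signals as deposited 11 above and 24 below, and with the authors' values 21 above and 14 below. The medians of both moved together: that of named genes was 0.03, -0.04 and 0.07 in these 3, and that of the members 0.03, -0.03 and 0.07. Against the median of named genes, 19, 18 and 17 members were higher and 16, 17 and 17 lower. At 1.5-fold the split was 1 higher and 1 lower in the first, and 1 higher and 2 lower in each of the others, where Ccnd3 joined Cdk19. In the authors' values 11.5% of named genes were 1.5-fold higher or more and 9.98% lower, 21.5% in all.

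**Figure D5:**
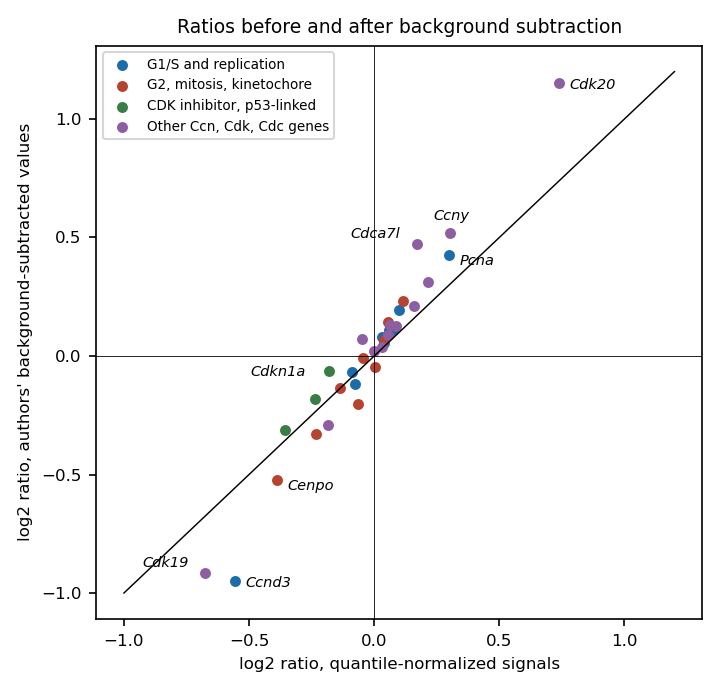
Log2 ratio of each of 35 detected genes in the authors' background-subtracted values (vertical) against quantile-normalized signals (horizontal), with the line of equality. Cdk20, Ccny and Cdca7l lie above the line and Cdk19 and Ccnd3 below it, and these 5 differ by more than 0.18 between the axes.

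The 16 members that were not detected have no ratio. Orc3, just under the detection score of 0.99, had scores of 0.987 and 0.984, and Cdc26, just above it, had 0.996 on both arrays. By their better array, E2f3, then Bub1 and then Mcmdc2 came next below. Bub1, a kinase of the spindle checkpoint, scored 0.644 without and 0.977 with FGF2. Ccne2, E2f2, E2f8 and Orc4, of the G1/S group, Aurkc, Cdc23 and Cenpc1, of the mitotic group, and Cdkn1b, Ccni, Ccnt2, Cdk12 and Cdcp1 make up the rest. Of the 74 probes, 41 were detected on both arrays, 2 on 1 array and 31 on neither.

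Ccnd1 (cyclin D1), which the rule leaves out, read 5992.7 and 18938.7, 3.16-fold higher with FGF2 on its brightest probe. Ccnd3, the other D-type cyclin detected, had the opposite sign, at -0.56.

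Of 24044 probes, the control array detected 8210 and the FGF2 array 8129. Of 6 fibroblast markers with a named probe, 5 were detected and Postn was not. With FGF2 Col1a1 was 3.38-fold and Col1a2 2.46-fold lower and S100a4 1.68-fold higher, while Col3a1 and Dcn stayed within 1.5-fold. Of 12 markers of blood, endothelial and epithelial cells with a named probe, 5 were detected. Lyz2 read 223.7 and 205.7, Cldn4 203.5 and 223.3, Emcn 268.4 and 302.2, and Krt18 204.8 and 384.9, and Hba-a1 was detected on the control array only. Ptprc, Csf1r, Pecam1, Nanog and Sox2 were not detected. Any part of these cells in the ratios above was not tested.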

How the data were processed

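Total RNA of 1 control and 1 FGF2 sample was labelled with Cy3 after linear amplification of 300 ng (6 h of transcription in vitro), per the labels' protocols. BeadStudio 1.0 was used, per the submitters' processing notes. The deposited signal intensity and bead spread are linear with background included, per the file headers and the values. Whether the bead column gives an SD or an SE is not stated in the files. The deposited detection fraction runs from 0 to 1. The authors' processed intensity equals the signal minus 139 for the control, and the signal minus 132, multiplied by 1.05, for FGF2; its medians were 288 and 293. No source used here names the method of that scaling.

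Of 9523 probes with a number of at least 5 digits after 1 or 2 zeros in the ID, 8884 matched a gene of the RefSeq table (GRCm38.p6). The files do not state this match, and every gene name depends on it. Gene coordinates of the array are not given. Signals were quantile normalized (limma 3.58.1 in R 4.3.3). An array's lowest detected signal (191.7 and 193.1) was the floor before log2 ratios were formed. Detection needed a score of 0.99 on at least 1 array. All else was computed in Python 3.11.15 with pandas 2.3.3. Of these steps, only the probe ratios were tested on simulated data, for recovery of the sign of planted fold changes. Named were Mki67, Pcna, Plk1, Cdkn1a, Ccng1, Zmat3 and the 6 members of each group farthest from 0 with full values, the other detected members with a ratio, and of other lists genes at least 1.5-fold apart or the 3 farthest from 0. Rrm2, Birc5, Anln, Foxm1, Xpc, Fzr1 and the cell type markers within 1.5-fold, beyond this rule, were picked after their values were seen. Members, gene lists and motifs were chosen with earlier results of these data known.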

Additional observations from a re-analysis of the deposited data

How the results depend on the processing

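The 2 counts of members past the fold were recomputed under 11 alternatives: signals as deposited, median scaling, the authors' table, normexp with an offset of 50, 50 added in place of the floor, detection on both arrays, a score of 0.95, no detection filter, all probes of a gene, and a lower and a higher fold. Group medians and single members had the first 9 of these (Cdca7l 8), and genes outside the set the authors' table only. The count of members at least 1.5-fold lower was 1 and became 2 with the signals as deposited, the authors' table and normexp, since Ccnd3 passed as well. At the lower fold (a log2 ratio of 0.32) 4 members were lower and 1 higher, where 27.4% of named genes passed, and at 2-fold 0 and 0, where 2.64% did. Over the settings the median of G1/S ran from -0.01 to 0.08, of G2 and mitosis from -0.09 to 0.00, of the arrest genes from -0.25 to -0.16, of the other members from -0.01 to 0.13, and of named genes from -0.04 to 0.07. The wider limit around 0, the other limits of brightness and the first p53 rule, given with their results above, were added after seeing the data. No gene at 1.5-fold changed sign. Only in the authors' table did single genes move by more than 0.18: Cdk20 (1.15), Cdk19 (-0.92), Ccnd3 (-0.95), Ccny (0.52) and Cdca7l (0.47). No paired analysis was possible because each group has 1 array. Signal over background limits the dim members, whose ratios are pulled towards 0.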
